A study of Mus musculus with 40 samples.

Results

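The metabotropic glutamate receptors are the G protein-coupled receptors for glutamate, and 6 of their genes were described here over 5 brain regions of mice. The members were Grm2, Grm3, Grm4, Grm5, Grm7 and Grm8, each taken as the array row whose annotated gene symbol is that name, with the highest mean kept where a gene had several rows. Of the 6, 5 had such a row, 1 row each, among the 19505 named genes of the series; Grm8 had none and is not analysed here. All 5 measured members lay above the filter on dim genes on every array, so none entered the tests through a single region.

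The arrays came from mice with Ala92-Dio2 (genotype label Ala92D2HY) and mice with Thr92-Dio2 (Thr92D2HY), which carry alanine or threonine at the same residue of the type 2 deiodinase, the enzyme that converts the prohormone thyroxine into active thyroid hormone. The labels give the background strain as C56BL/6 and the age as 8 to 10 weeks for all animals, which were fed chow at room temperature. Total RNA of amygdala, cerebellum, hippocampus, prefrontal cortex and striatum was hybridised to 40 Affymetrix arrays, 4 for each of the 10 combinations of genotype and region, and the arrays are called here by the numbers 1 to 40 of their labels. The study asked how expression profiles of brain areas differ between the genotypes. The labels do not tie arrays to animals, so every p-value speaks of variation among these arrays alone, and part or all of that may be technical. The description field of the striatal arrays reads "Striatum Cortex", while their titles and tissue labels say striatum, the name used here.

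Metabotropic receptors fall into 3 groups by sequence and coupling. Group I receptors such as mGluR5 act through Gq and phospholipase C and sit mostly on the postsynaptic side, where they drive a form of long-term depression. Group II receptors (mGluR2 and mGluR3) and group III receptors (mGluR4, mGluR7 and mGluR8) act through Gi/o proteins, lower cyclic AMP and restrain transmitter release from nerve terminals, and mGluR3 is also made by glia.

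Values are log2 signals after RMA, in which 1 unit is a doubling of signal, and they are compared for 1 gene across arrays and never between genes, since each row has its own probes. Background was read from 5222 negative control rows, whose median ran between 5.73 and 6.35 over the arrays, called here the background range. The spread of these rows about their median was not computed, so a value above the range is not thereby shown to exceed background. The highest value in the table was 19.93, above the 16 units that a 16-bit scan can give, so the signals were transformed in a way the sources used here do not give and a log2 difference need not equal the log2 ratio of RNA. Adjusted p-values are from limma with Benjamini-Hochberg adjustment over the 14978 genes tested. The filter on dim genes, at 4.60, lies below the background range. The genes tested, and the shares of all genes given below, therefore include genes at background. A gene was called between a region and the mean of the other 4 at an adjusted p under 0.05 and a log2 difference of at least 1, and in the other comparisons at an adjusted p under 0.05. Region lists of marker genes were chosen with earlier results of these data known, so their calls are not a separate check of the labels. In amygdala 6 of its 10 markers were called higher, against 3.4% of all genes. In cerebellum it was 9 of 9 against 8.69%, in hippocampus 7 of 9 against 3.57% and in striatum 8 of 8 against 5.71%. In prefrontal cortex 4 of 9 neocortex markers were called higher, and 8 of 9 olfactory bulb markers too, against 3.28% of all genes. Of the same 9 neocortex markers 3 were called higher in amygdala, 3 in hippocampus, 3 in striatum and 1 in cerebellum, so this list does not single out prefrontal cortex.

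The promoters of the group II pair are shown because these receptors, alike in coupling, took opposite places in the striatum. They were taken from RefSeq on build GRCm38.p6, run from 250 bases before to 50 bases after the annotated start, and have matches to the GC box GGGCGG, searched on both strands, in capitals. The Grm2 promoter lies at chr9:106656060-106656359 on the minus strand and the Grm3 promoter at chr5:9725303-9725602 on the minus strand.
Grm2: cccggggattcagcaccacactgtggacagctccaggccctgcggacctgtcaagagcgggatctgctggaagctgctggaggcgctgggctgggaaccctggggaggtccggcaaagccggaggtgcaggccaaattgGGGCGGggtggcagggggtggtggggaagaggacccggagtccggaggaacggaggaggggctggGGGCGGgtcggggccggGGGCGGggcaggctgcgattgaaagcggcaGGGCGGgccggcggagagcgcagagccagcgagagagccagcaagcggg
Grm3: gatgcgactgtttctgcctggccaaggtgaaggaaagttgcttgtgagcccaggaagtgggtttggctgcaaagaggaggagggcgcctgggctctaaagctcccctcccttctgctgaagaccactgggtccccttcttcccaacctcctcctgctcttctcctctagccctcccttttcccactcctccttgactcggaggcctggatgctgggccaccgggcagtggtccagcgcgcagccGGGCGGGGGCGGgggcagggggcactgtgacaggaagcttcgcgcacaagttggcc
The Grm2 window held 4 GC boxes and was 72.0% G and C, and the Grm3 window held 2 GC boxes side by side and was 63.7% G and C. Grm7 had more than 1 annotated start. Its window at chr6:110645262-110645561 on the plus strand held 1 GC box and was 61.0% G and C. The overlapping window at chr6:110645348-110645647 held 1 GC box and was 66.7% G and C. Grm4 and Grm5 had no promoter in the set used. Of 32851 promoters of the same length, 35.7% held a GC box, 13.6% held TATAAA and the median was 52.7% G and C. None of the Grm2, Grm3 and Grm7 windows held TATAAA. These are counts of letters in the window and say nothing of what binds there.

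Grm5, which encodes the group I receptor mGluR5, had its highest signal in the striatum and was near background in the cerebellum. Its mean was 13.91 ± 0.31 in striatum, 12.95 ± 0.30 in hippocampus, 12.84 ± 0.23 in amygdala, 12.07 ± 0.19 in prefrontal cortex and 6.71 ± 0.73 in cerebellum (SD, n = 8 arrays each). The striatal arrays read 13.70, 13.86, 14.18 and 14.56 in Ala mice and 13.72, 13.82, 13.81 and 13.64 in Thr mice, and none overlapped with an array of another region. In the cerebellum the Ala arrays read 5.97, 6.58, 7.16 and 8.00 and the Thr arrays 7.33, 6.57, 6.05 and 6.04. Of these 8 cerebellar values 3 fell inside the background range and none below it, so on those arrays Grm5 could not be told from background. Striatum exceeded hippocampus by 0.96 ± 0.19 (SE, adjusted p = 5.04e-05), hippocampus and amygdala did not differ beyond their spread (0.11 ± 0.19, adjusted p = 0.788), amygdala exceeded prefrontal cortex by 0.77 ± 0.19 (adjusted p = 0.00260), and prefrontal cortex exceeded cerebellum by 5.36 ± 0.19 (adjusted p = 1.16e-25).

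Grm2, the gene of the group II receptor mGluR2, was high in prefrontal cortex and hippocampus, lower in amygdala and cerebellum and near background in striatum. Its mean was 11.58 ± 0.38 in prefrontal cortex, 11.51 ± 0.35 in hippocampus, 9.56 ± 0.30 in amygdala, 8.94 ± 0.24 in cerebellum and 6.20 ± 0.92 in striatum (SD, n = 8). Prefrontal cortex and hippocampus did not differ beyond their spread (0.06 ± 0.24, adjusted p = 0.909), while hippocampus exceeded amygdala by 1.95 ± 0.24 (adjusted p = 3.43e-08) with no overlap of arrays. Amygdala exceeded cerebellum by 0.62 ± 0.24 (adjusted p = 0.0252), with overlapping arrays. That call was lost without Thr amygdala array 6 (0.54, adjusted p = 0.0637) and without Ala cerebellum array 10 (0.56, adjusted p = 0.0566). It was also lost without 5 arrays set aside for neighbouring tissue in earlier results and named below (0.54, adjusted p = 0.0885), while the difference itself stayed near its size. Cerebellum exceeded striatum by 2.74 ± 0.24 (adjusted p = 4.03e-13).

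The striatal arrays spread more for Grm2 than those of any other region, with 7.48, 5.59, 5.36 and 5.42 in Ala mice (arrays 33 to 36) and 5.25, 7.14, 7.08 and 6.30 in Thr mice (arrays 37 to 40). Ala array 33 and Thr arrays 38 and 39 stood above the background range, and the other 5 lay within or below it. The mean signal of 9 neocortex markers on the same arrays was 9.79, 9.08, 9.62 and 9.18 in Ala mice and 8.77, 9.50, 9.90 and 9.62 in Thr mice. The 3 arrays with Grm2 above the background range were among the 5 with the highest neocortex scores, 9.50 to 9.90. Ala array 35 was another of those 5, with Grm2 at 5.36. Of the 9 neocortex markers 3 were called higher in striatum itself and 4 lower, so the score does not measure cortical tissue alone. The part of cortical tissue in the Grm2 value was not tested.

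Grm3, the other group II gene, ran the other way from Grm2 in striatum. Its mean was 14.11 ± 0.23 in striatum, 13.31 ± 0.47 in prefrontal cortex, 12.42 ± 0.36 in hippocampus, 12.28 ± 0.68 in amygdala and 10.74 ± 0.17 in cerebellum (SD, n = 8). Striatum exceeded prefrontal cortex by 0.80 ± 0.20 (adjusted p = 0.00162) and prefrontal cortex exceeded hippocampus by 0.90 ± 0.20 (adjusted p = 0.000800), in both cases with overlapping arrays. Hippocampus and amygdala did not differ beyond their spread (0.13 ± 0.20, adjusted p = 0.764), and amygdala exceeded cerebellum by 1.54 ± 0.20 (adjusted p = 1.71e-08) with no overlap. Astrocytes are known to make mGluR3. Against the mean of the other regions the median difference of their markers was -0.59 in striatum, with 0 of 10 called higher and 4 lower. It was 0.71 in cerebellum, with 4 called higher and 1 lower. The microglia markers had their highest median difference in striatum (0.96, 4 of 8 called higher) and their lowest in cerebellum (-1.82, 7 called lower). Between these their medians were close, at 0.33 in prefrontal cortex, 0.30 in hippocampus and 0.25 in amygdala, with 0 of 8 called in each. Grm3 itself was at 0.93, -0.20 and -0.36 in those regions. Of the oligodendrocyte markers 9 of 9 were called higher in striatum, 9 lower in amygdala, 5 lower in prefrontal cortex and 0 in either direction in cerebellum. Of all genes, 5.71% were called higher and 5.2% lower in striatum, and 8.69% and 10.1% in cerebellum. The shares were 3.4% and 2.44% in amygdala, 3.57% and 2.34% in hippocampus, and 3.28% and 1.94% in prefrontal cortex. The part of any of these cell types in the Grm3 value was not tested.

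Grm4, which encodes the group III receptor mGluR4 that sits on the parallel fibre terminals of cerebellar granule cells, was highest in the cerebellum by a wide margin. Its mean was 14.19 ± 0.25 in cerebellum, 9.72 ± 0.58 in striatum, 8.82 ± 0.75 in prefrontal cortex, 7.51 ± 0.64 in hippocampus and 7.14 ± 0.52 in amygdala (SD, n = 8). The cerebellar arrays read 14.20, 14.43, 14.39 and 14.35 in Ala mice and 14.04, 14.38, 13.76 and 13.94 in Thr mice, and no array of another region exceeded 10.64. Cerebellum exceeded striatum by 4.46 ± 0.27 (adjusted p = 4.73e-18), striatum exceeded prefrontal cortex by 0.90 ± 0.27 (adjusted p = 0.00698) and prefrontal cortex exceeded hippocampus by 1.31 ± 0.27 (adjusted p = 0.000219). Hippocampus and amygdala did not differ beyond their spread (0.37 ± 0.27, adjusted p = 0.434), and all 16 of their arrays lay above the background range.

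Grm7, the gene of mGluR7, a presynaptic receptor with low affinity for glutamate, varied least of the 5 between the forebrain regions. Its mean was 11.25 ± 0.28 in striatum, 10.98 ± 0.37 in amygdala, 10.74 ± 0.26 in hippocampus, 10.18 ± 0.27 in prefrontal cortex and 8.63 ± 0.27 in cerebellum (SD, n = 8). Striatum and amygdala did not differ beyond their spread (0.27 ± 0.15, adjusted p = 0.152), nor did amygdala and hippocampus (0.24 ± 0.15, adjusted p = 0.318). Without Ala amygdala array 1 the first of these pairs was called, with amygdala lower by 0.38 (adjusted p = 0.0295). Hippocampus exceeded prefrontal cortex by 0.56 ± 0.15 (adjusted p = 0.00422) and prefrontal cortex exceeded cerebellum by 1.55 ± 0.15 (adjusted p = 5.51e-12), both with no overlap of arrays.

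Calls between pairs of regions were common among all genes, which is the background for the neighbours above. The cerebellum differed in 53.2% of all genes from amygdala, 50.1% from prefrontal cortex, 50% from hippocampus and 54% from striatum. The striatum differed in 37.4% from amygdala, 34.8% from hippocampus and 33.9% from prefrontal cortex, and the shares were 16.2% for amygdala against hippocampus, 15.5% for amygdala against prefrontal cortex and 19.5% for hippocampus against prefrontal cortex.

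**Figure D1:**
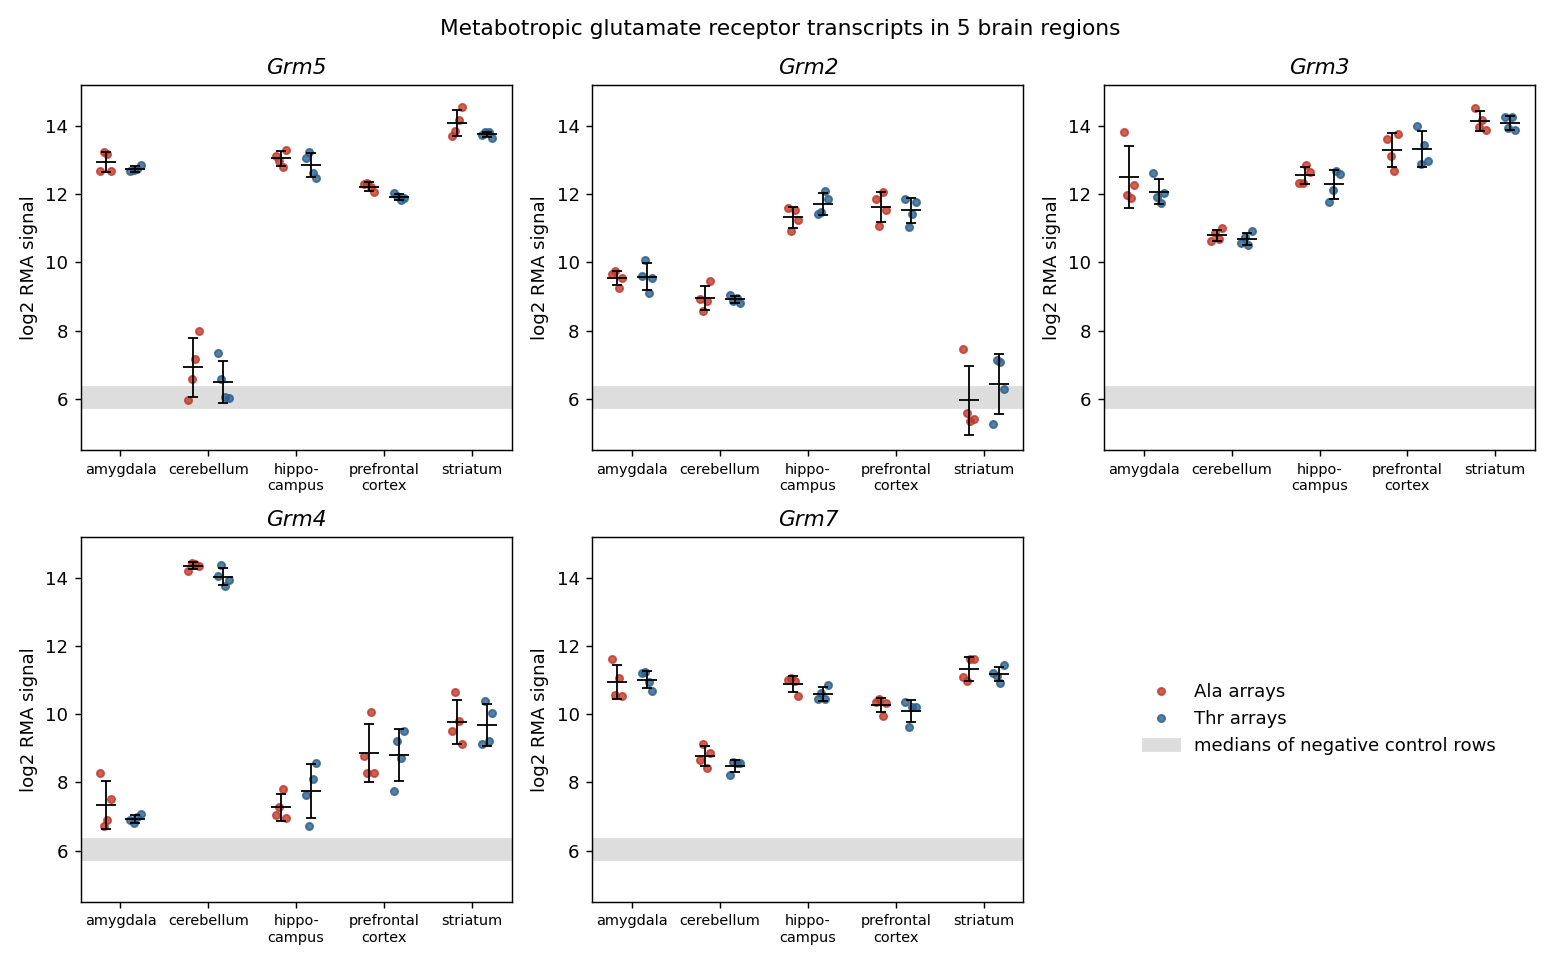
The log2 RMA signal of each measured receptor gene (vertical axis) is plotted for every array by region (horizontal axis), Ala arrays in red left of Thr arrays in blue, with the group mean and SD (n = 4) as a bar and the background range, 5.73 to 6.35, as a grey band. Cerebellar Grm5 and striatal Grm2 reach the grey band, and Grm4 stands at 13.76 or above in the cerebellum only.

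Against the mean of the other 4 regions, 4 of the 5 measured members were called in cerebellum, 1 higher and 3 lower, where 18.7% of all genes were called, 8.69% higher and 10.1% lower. Grm4 was higher by 5.89 ± 0.21 (SE), while Grm5 was lower at -6.23 ± 0.15, Grm3 at -2.29 ± 0.16 and Grm7 at -2.16 ± 0.12. Grm2, at -0.77 ± 0.19 (adjusted p = 0.000479), passed the p threshold but not the minimum difference.

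In striatum 4 of 5 were called as well, 3 higher and 1 lower, where 10.9% of all genes were called, 5.71% higher and 5.2% lower. Grm5 was higher by 2.77 ± 0.15, Grm3 by 1.92 ± 0.16 and Grm7 by 1.12 ± 0.12, and Grm2 was lower at -4.20 ± 0.19. In hippocampus 3 of 5 were called against 5.91% of all genes (3.57% higher, 2.34% lower), with Grm2 higher by 2.45 ± 0.19, Grm5 higher by 1.57 ± 0.15 and Grm4 lower at -2.46 ± 0.21. In amygdala 2 of 5 were called against 5.84% of all genes (3.4% higher, 2.44% lower), with Grm5 higher by 1.43 ± 0.15 and Grm4 lower at -2.92 ± 0.21.

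In prefrontal cortex 1 of 5 was called against 5.21% of all genes (3.28% higher), and that was Grm2, higher by 2.52 ± 0.19. Grm3 at 0.93 ± 0.16 (adjusted p = 1.42e-05) and Grm4 at -0.82 ± 0.21 (adjusted p = 0.00282) stayed just under the minimum difference, and both were called without Ala array 27, at 1.03 and -1.02. With 5 members that differ in direction, a median over them says little: it was -2.16 in cerebellum and 1.12 in striatum, against -0.00465 and -0.000888 over all genes tested.

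**Figure D2:**
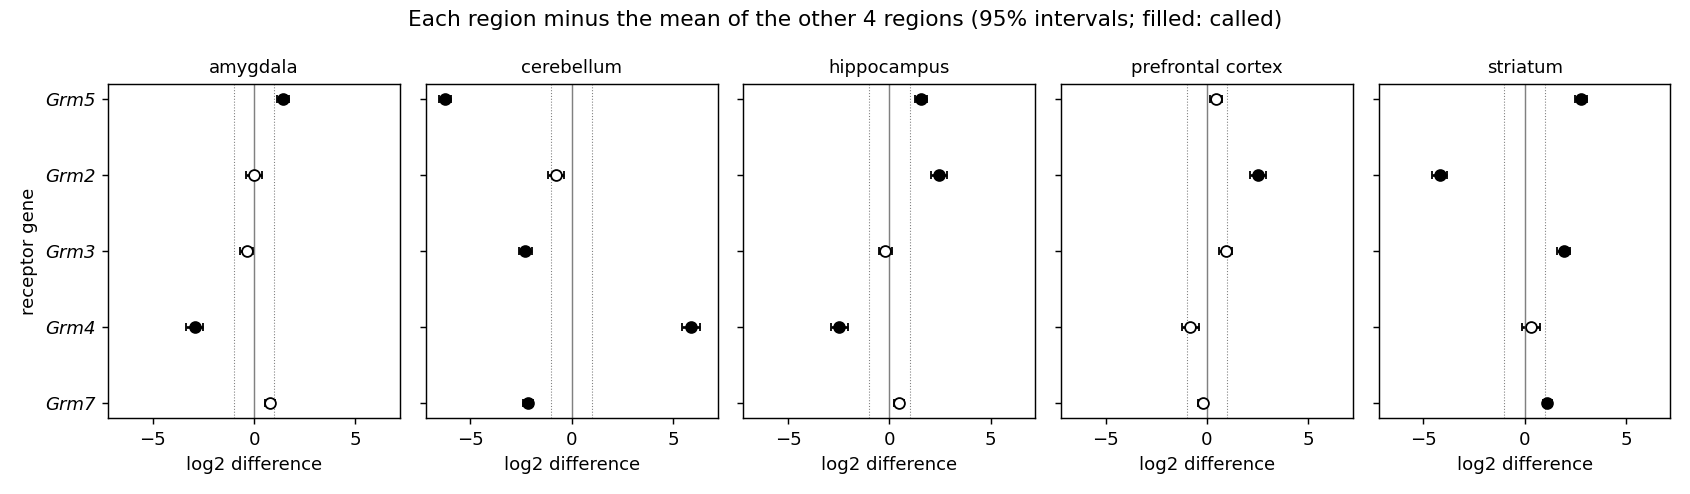
Each point is the log2 difference between a region and the mean of the other 4 regions (horizontal axis) for a receptor gene (vertical axis), with its 95% interval; filled points were called and dotted lines mark a difference of 1. Grm4 in cerebellum lies at 5.89 and Grm5 in cerebellum at -6.23, and Grm2 lies at -4.20 in striatum.

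Several arrays carried markers of tissue outside the labelled region, and some receptors had their highest or lowest level of the region on those arrays. The cases below are examples and not a survey of all markers and receptors. In bulk tissue, fewer cells of a type and less RNA per cell cannot be told apart. In prefrontal cortex the mean signal of 9 olfactory bulb markers was 8.42, 6.74, 9.61 and 7.80 on Ala arrays 25 to 28 and 7.32, 8.57, 8.21 and 9.02 on Thr arrays 29 to 32. Grm4 on the same arrays was 8.76, 8.28, 10.07 and 8.27 in Ala mice and 7.75, 9.21, 8.73 and 9.51 in Thr mice, so that the 3 arrays with the highest bulb signal, Ala 27 and Thr 30 and 32, were also the 3 with the highest Grm4. Grm3 was lowest on these 3 arrays, at 12.68 on Ala array 27 and at 12.89 and 12.96 on Thr arrays 30 and 32, against 13.12 to 14.01 on the other 5. The part of olfactory bulb tissue in these values was not tested.

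In hippocampus the mean signal of 10 thalamus markers was 7.48, 7.33, 7.59 and 7.49 on Ala arrays 17 to 20 and 7.46, 7.80, 9.90 and 9.25 on Thr arrays 21 to 24. Grm4 was 7.04, 7.27, 7.82 and 6.94 in Ala mice and 7.63, 6.71, 8.10 and 8.58 in Thr mice, highest on Thr arrays 23 and 24 where the thalamus markers were highest. The cerebellum markers, of the region where Grm4 itself is highest, also had their highest hippocampal signal on these 2 arrays, at 6.69 and 6.51 against 5.75 to 6.06 on the other 6. Of the 10 thalamus markers 5 were called higher in cerebellum (median difference 1.62), and Zic1 is on both lists. The thalamus score is therefore not of thalamus alone, and the lists are not separate observations. Grm5 was lowest on Thr arrays 23 and 24, at 12.63 and 12.48 against 12.79 to 13.30 on the other 6, and Grm2 was highest on them, at 12.09 and 11.84.

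In amygdala the mean signal of 8 striatum markers was 12.18, 8.64, 8.76 and 8.79 on Ala arrays 1 to 4 and 10.02, 9.41, 9.02 and 9.84 on Thr arrays 5 to 8. Grm3 was 13.83, 11.96, 11.89 and 12.28 in Ala mice and 12.61, 11.91, 11.74 and 12.03 in Thr mice, so Ala array 1 was highest for both, and Thr array 5 stood next for both. Grm5, highest of all regions in striatum, was at 12.67 on Ala array 1, among the lowest of the amygdala arrays. Ala array 1 was also highest in amygdala for the 9 cerebellum markers, at 8.18 against 6.17 to 6.76 on the other 7, and for the 9 neocortex markers, at 10.61 against 9.40 to 10.01. Of these neocortex markers 3 were called higher in striatum and 4 lower, so that score is not of cortex alone. Grm4 was highest on Ala array 1 too, at 8.27 against 6.72 to 7.51. The part of other tissue in the hippocampal and amygdalar values was not tested. A set of 5 arrays had been set aside for neighbouring tissue in earlier results: Ala amygdala 1 and 2, Thr hippocampus 23 and 24, and Ala striatum 36. The markers given here do not show why Ala amygdala 2 (striatum score 8.64, the lowest in amygdala) and Ala striatum 36 were in the set. The prefrontal cortex arrays with the highest olfactory bulb signal stayed in, so leaving out the set does not remove every array with such markers. Without the set, Grm4 in hippocampus was at -2.76 ± 0.22, Grm5 in amygdala at 1.41 ± 0.17, Grm5 in striatum at 2.65 ± 0.16 and Grm2 in striatum at -4.05 ± 0.21 against the mean of the other regions.

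**Figure D3:**
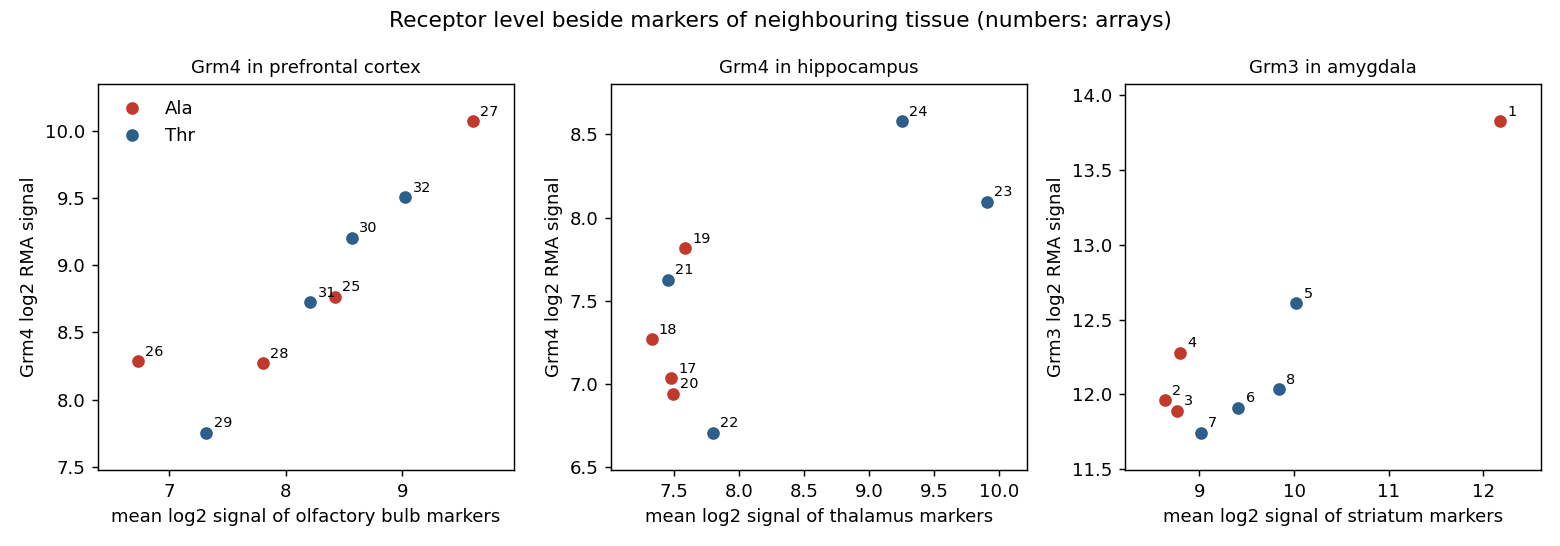
Each point is an array, numbered as in the labels, with the mean log2 signal of markers of a neighbouring tissue on the horizontal axis and the log2 RMA signal of Grm4 or Grm3 on the vertical axis, Ala in red and Thr in blue. Ala array 27 has the highest olfactory bulb signal (9.61) and the highest Grm4 (10.07) in prefrontal cortex, and Ala array 1 has the highest striatum signal (12.18) and the highest Grm3 (13.83) in amygdala.

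Between the genotypes no measured receptor gene was called in any region. The count was 0 of 5 in each region, against 0.12% of all genes in amygdala, 0.0801% in striatum and 0% in cerebellum, hippocampus and prefrontal cortex by limma. It was also 0 of 5 for the average over regions, against 0.02% of all genes, and for the F-test of whether the genotype difference varied between regions, against 0.0401%. At an unadjusted p under 0.05 the limma fit found 0 of 5 members in each region. Of all genes, 5.33% passed in amygdala, 1.94% in cerebellum, 3.14% in hippocampus, 2.33% in prefrontal cortex and 6.14% in striatum. In the average 1 of 5 members passed, against 5.37% of all genes. The F-test p-values of the 5 ranged between 0.499 for Grm4 and 0.967 for Grm5, with adjusted p = 1.00 for each.

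The member that passed unadjusted was Grm5. Its Ala minus Thr difference was positive in 5 of 5 regions, at 0.19 in amygdala, 0.43 in cerebellum, 0.20 in hippocampus, 0.30 in prefrontal cortex and 0.33 in striatum (SE 0.26 each). The average of the regions was 0.29 ± 0.12 (95% interval 0.05 to 0.53, adjusted p = 0.861 by limma). The cerebellar difference, the largest of the 5, came from signals near the background range. It spanned 0.07 to 0.75 with each array left out. The average kept its sign when any single array was left out, between 0.22 and 0.35. Without the 5 arrays named above it was 0.20 ± 0.13, and the hippocampal difference turned to -0.10 ± 0.31.

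In prefrontal cortex the Grm5 signal was 12.29, 12.33, 12.20 and 12.05 on the Ala arrays and 12.02, 11.94, 11.82 and 11.89 on the Thr arrays. All 4 Ala arrays lay above all 4 Thr arrays, for which a two-sided exact permutation test gives p = 0.0286, the smallest p that 4 arrays against 4 allow. It is 1 of 25 such comparisons, and the arrays of the genotypes did not overlap for 1.66% of all genes in prefrontal cortex. That share was 3.19% in amygdala, 2.66% in cerebellum, 2.73% in hippocampus and 1.98% in striatum, where no member was without overlap. In the fit across all genes the same difference had adjusted p = 1.00 by limma. In striatum 3 of 4 Ala arrays lay above all 4 Thr arrays, and in the other regions the genotypes overlapped more widely.

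For the other members the genotype differences were of either sign and none was called, though some were larger than the SD of both groups. Grm4 in cerebellum averaged 14.34 ± 0.10 in Ala mice and 14.03 ± 0.26 in Thr mice, Grm7 in hippocampus 10.88 ± 0.24 in Ala mice and 10.59 ± 0.19 in Thr mice, and Grm2 in hippocampus 11.33 ± 0.31 in Ala mice and 11.70 ± 0.32 in Thr mice (SD, n = 4). The average over regions was -0.15 ± 0.15 for Grm2 (95% interval -0.45 to 0.15), 0.16 ± 0.13 for Grm3 (-0.10 to 0.42), 0.07 ± 0.17 for Grm4 (-0.27 to 0.42) and 0.16 ± 0.09 for Grm7 (-0.02 to 0.35). By region the differences outside Grm5 ranged between -0.49 ± 0.38 for Grm4 in hippocampus and 0.42 ± 0.38 for Grm4 in amygdala. Both moved when the 5 arrays named above were left out: the hippocampal difference was then 0.10 ± 0.41 and the amygdalar one 0.27 ± 0.41. Grm3 in amygdala, at 0.42 ± 0.29, was 0.01 ± 0.27 without those arrays. Intervals of this width leave room for differences of about 1 log2 unit in Grm4 within a region, so the arrays do not show that the genotypes were alike.

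**Figure D4:**
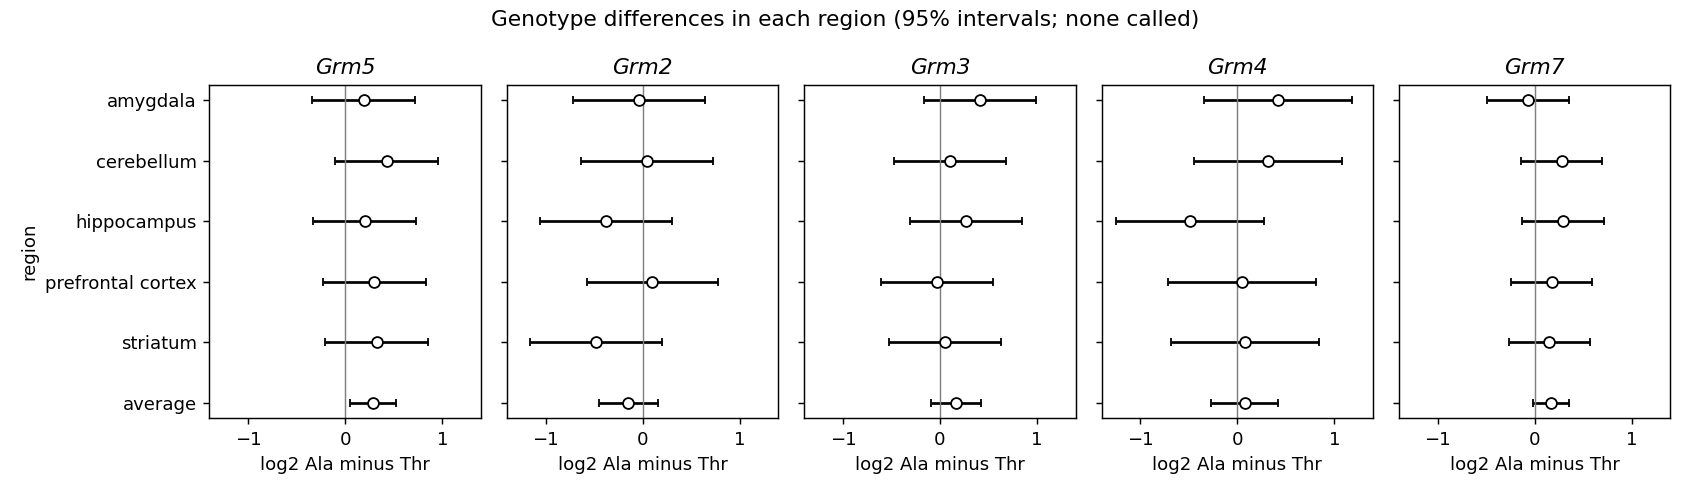
The log2 difference Ala minus Thr (horizontal axis) is shown for each receptor gene by region and for the average over regions (vertical axis), with 95% intervals; none was called. Every regional interval includes 0, and the Grm5 average at 0.29 has an interval between 0.05 and 0.53.

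Grm6, the receptor gene of retinal bipolar cells, averaged 5.23 to 5.33 in the 5 regions, below the background range, with no neighbouring regions that differed.

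Genes of group I signalling differed between regions in both directions. Of all genes, 8.69% were called higher and 10.1% lower in cerebellum, 5.71% and 5.2% in striatum, 3.57% and 2.34% in hippocampus, 3.28% and 1.94% in prefrontal cortex, and 3.4% and 2.44% in amygdala. Of 14 listed genes tested, 4 were called higher and 6 lower in cerebellum, 4 higher and 5 lower in striatum, 3 higher and 1 lower in hippocampus, 2 higher and 2 lower in prefrontal cortex, and 0 higher and 3 lower in amygdala. Their median difference was -0.65 in cerebellum and -0.05 in striatum, against medians within 0.03 of 0 over all genes in each region. The Homer scaffolds, which tether mGluR5 to its calcium stores, split by region: Homer3 was higher in cerebellum by 5.57 ± 0.17, Homer2 was higher in prefrontal cortex by 1.96 ± 0.13 and in hippocampus by 1.73 ± 0.13. Rgs4, which speeds the shut-off of Gq and Gi signals, was lower in cerebellum at -6.50 ± 0.19, as Grm5 was, and its relative Rgs2 was higher in striatum by 4.26 ± 0.21. Plcb4, a phospholipase C gene, was lower in hippocampus at -2.09 ± 0.20, and Shank1, a scaffold of the postsynaptic density, was lower in striatum at -2.48 ± 0.14.

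Of 16 tested genes of Gi/o signalling, which serves groups II and III, 3 were called higher and 7 lower in striatum, 5 higher and 2 lower in hippocampus, 3 higher and 3 lower in cerebellum, 3 higher and 2 lower in prefrontal cortex and 1 higher and 1 lower in amygdala. The shares of all genes called higher and lower were 5.71% and 5.2% in striatum, 3.57% and 2.34% in hippocampus, 8.69% and 10.1% in cerebellum, 3.28% and 1.94% in prefrontal cortex, and 3.4% and 2.44% in amygdala. Adcy5, the main adenylyl cyclase of striatal neurons, was higher in striatum by 6.35 ± 0.17 and lower in cerebellum at -3.55 ± 0.17. The potassium channel subunit gene Kcnj6 was lower in striatum at -3.90 ± 0.24 and higher in hippocampus by 2.43 ± 0.24, the same directions as Grm2. Rgs8, a G protein regulator, was higher in cerebellum by 5.50 ± 0.16 and lower in amygdala at -2.30 ± 0.16, the same directions as Grm4. Rgs8 was also called lower in prefrontal cortex, at -3.00 ± 0.16, where Grm4, at -0.82, was not called. Adcy2 was higher in prefrontal cortex by 2.18 ± 0.13 and Adcy8 in amygdala by 1.07 ± 0.21. The striatal mean of Kcnj6, 6.78, and the cerebellar mean of Adcy5, 6.76, were near the background range, which limits what those differences measure.

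For the 3 shorter lists the shares of all genes were again 3.4% higher and 2.44% lower in amygdala, 3.57% and 2.34% in hippocampus, 3.28% and 1.94% in prefrontal cortex, 5.71% and 5.2% in striatum, and 8.69% and 10.1% in cerebellum. Among 8 tested receptor partners 4 were called higher and 0 lower in amygdala, 2 and 0 in hippocampus, 2 and 1 in prefrontal cortex, 2 and 0 in striatum, and 1 higher and 4 lower in cerebellum. Elfn1, a postsynaptic protein that binds mGluR7 across the synapse, was higher in amygdala by 1.89 ± 0.15, and its relative Elfn2 was higher in hippocampus by 1.48 ± 0.12. Grasp, the scaffold tamalin of group I receptors, was lower in cerebellum at -5.36 ± 0.22 and higher in prefrontal cortex by 1.37 ± 0.22. Its cerebellar mean of 6.18 lay inside the background range, so that cerebellar difference is only a lower bound on its size. Caln1, a neuronal calcium-binding protein gene on this list, was higher in cerebellum by 2.17 ± 0.15 and in striatum by 1.44 ± 0.15, and lower in prefrontal cortex at -2.32 ± 0.15. Of 7 tested genes that supply glutamate or N-acetylaspartylglutamate, a peptide agonist of mGluR3, 1 was called higher and 4 lower in cerebellum, 2 higher in amygdala, 1 higher in hippocampus and 2 lower in striatum. The glial glutamate transporter gene Slc1a3 was higher in cerebellum by 1.76 ± 0.17 and lower in striatum at -1.23 ± 0.17. The neuronal transporter gene Slc1a1 was lower in cerebellum at -2.68 ± 0.11, and Slc7a11, the cystine and glutamate exchanger gene, was higher in amygdala by 1.53 ± 0.15. Of 5 tested effectors of mGluR-dependent long-term depression 2 were called higher and 0 lower in striatum, 1 higher and 2 lower in cerebellum, 1 higher and 1 lower in amygdala, 1 higher and 0 lower in prefrontal cortex, and 0 in either direction in hippocampus. Ptpn5, the phosphatase STEP, was higher in striatum by 4.49 ± 0.17 and lower in cerebellum at -5.19 ± 0.17, the same directions as Grm5, while Arc was higher in prefrontal cortex by 1.39 ± 0.31 and Eef2k higher in cerebellum by 1.36 ± 0.12.

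By genotype 0 of the 50 genes on these 5 lists were called by limma in any region or in the average. At an unadjusted p under 0.05, 7 of 50 passed in amygdala against 5.33% of all genes, 0 in cerebellum against 1.94%, 1 in hippocampus against 3.14%, 0 in prefrontal cortex against 2.33%, 2 in striatum against 6.14% and 2 in the average against 5.37%. The 2 of the average were Eef2k, an elongation factor kinase, with an Ala minus Thr difference of 0.22 ± 0.10 (adjusted p = 0.871), and Fmr1, the gene of the translation regulator FMRP, with 0.18 ± 0.08 (adjusted p = 0.891), named after its values were seen. Among the group I signalling genes Homer2 had the smallest p, with a difference of 0.21 ± 0.11 (adjusted p = 0.931). Eef2k and Homer2 were higher in Ala mice in 5 of 5 regions, without being called in any.

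Over the 40 arrays the genes whose levels ran most like each receptor were found by Pearson's r, given as a description, since arrays of a region share that region's level. Grm5 ran closest to Camkv (0.99), Lmo7 (0.99) and Kcnip2 (0.99), Grm4 to Chn2 (0.97), Usp3 (0.97) and Inpp5a (0.97), Grm3 to Ngef (0.94), Homer1 (0.94) and Rgs4 (0.93), Grm2 to Nrip3 (0.95), Cadps (0.95) and Dlgap1 (0.94), and Grm7 to Kcng3 (0.95), Pde2a (0.95) and Slc24a4 (0.94). After each group's mean was subtracted, which leaves the variation among arrays of a group, the closest genes were Scn3b (0.77) for Grm5, Gdpd5 (0.83) for Grm4, Osbpl1a (0.83) for Grm3, Adgra1 (0.73) for Grm2 and Ttl (0.68) for Grm7. Camkv was the only gene among the 3 closest to its receptor on both measures (0.73 for Grm5 after subtraction). Among the receptors themselves the levels of Grm5 and Grm7 ran together (0.93) and those of Grm4 and Grm5 opposite (-0.85). After subtraction the r was -0.11 for Grm5 and Grm7 and -0.26 for Grm4 and Grm5, and the highest was 0.46 for Grm3 and Grm7.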

How the data were processed

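RNA from 5 brain regions of Ala and Thr mice was measured on 40 arrays in 10 groups of 4. The deposited table holds log2 signals made by the authors with RMA, per the submitters' processing notes, in an unstated version. RMA subtracts background, quantile-normalizes the arrays and combines the probes of a row, so array medians lay between 6.12 and 6.32. Of 28846 rows, 6640 were controls and 19572 had a gene symbol in the platform annotation, giving 19505 genes. No arrays were identical (highest correlation 0.994).

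Genes that exceeded 4.60, the 30th percentile of the table, on at least 4 arrays were tested with limma 3.58.1 in R 4.3.3 (group means, 30 residual degrees of freedom, eBayes with trend), after a test on simulated data. The number of arrays limits the precision. Members, gene lists and tests were chosen with earlier results of these data known. Named genes were the members, per list and region the called genes with the largest difference in each direction (for genotype, the smallest p), and the 3 most alike by r. Python 3.11.15, pandas 2.3.3 and matplotlib 3.10.9 served sequences and figures. Alternatives covered scaling, filter, row choice, variance, weights, thresholds and arrays left out.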

Additional observations from a re-analysis of the deposited data

Results flagged for a closer look

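In 3 of the 50 sets of 4 arrays (5 genes in 10 groups), 1 array stood apart from the other 3, its gap to the nearest exceeding 0.829 of the whole range; chance gives about 1 in 20 such sets. Grm2 in Ala striatum had array 33 at 7.48 against 5.36 to 5.59 on the other 3, a gap of 0.889 of the range. Grm7 in Ala hippocampus had array 20 at 10.52 against 10.97 to 11.05, a gap of 0.865 of the range. Grm7 in Thr cerebellum had array 13 at 8.23 against 8.56 to 8.61, a gap of 0.861 of the range.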

How the results depend on the processing

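No measured receptor gained a genotype call at the adjusted threshold under the alternatives run; the exact permutation test gave an unadjusted p of 0.0286 for Grm5 in prefrontal cortex. The calls of cerebellum and hippocampus against the other regions came to 4 to 5 and 2 to 4 members. In prefrontal cortex the 1 called member became 2 with array weights, 2 without the 5 arrays named above and 4 with no minimum difference. The count was 3 without the 2 arrays with the highest olfactory bulb score, an alternative chosen after seeing the data. Leaving out each array in turn gave 1 to 3, the 3 without Ala prefrontal cortex array 27. A minimum difference of 2 left 1 called member in amygdala and 2 in striatum. A minimum of 1 between pairs of regions left 3 of 5 for amygdala against prefrontal cortex, 1 of 4 for hippocampus against prefrontal cortex, 3 of 5 for hippocampus against striatum and 3 of 5 for prefrontal cortex against striatum. These minimums lower the counts by their construction; for the other settings the cause was not tested.

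Differences that were not called changed sign in places. Grm2 in amygdala against the other regions, 0.00 as reported, was -0.0017 with median centring, -0.064 without the 5 arrays and -0.079 to 0.084 with each array left out. Ala minus Thr in prefrontal cortex was 0.048 for Grm3 and -0.087 for Grm4 with array weights, and 0.057 and -0.12 without the 2 arrays with bulb signal, which also gave 0.053 for Grm2 in hippocampus minus prefrontal cortex. Without the 5 arrays, Ala minus Thr in hippocampus was 0.10 for Grm4 and -0.10 for Grm5. With each array left out, Ala minus Thr in amygdala spanned -0.20 to 0.13 for Grm2, -0.030 to 0.62 for Grm3 and -0.29 to 0.065 for Grm7. It spanned -0.12 to 0.17 for Grm2 in cerebellum, -0.058 to 0.29 for Grm2, -0.18 to 0.20 for Grm3 and -0.36 to 0.29 for Grm4 in prefrontal cortex, and -0.077 to 0.14 for Grm3 and -0.21 to 0.31 for Grm4 in striatum. The Grm4 average spanned -0.0074 to 0.13, and Grm2 in hippocampus minus prefrontal cortex -0.16 to 0.011.

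Over all genes the genotype calls numbered 18 in amygdala (5 to 23 under the alternatives), 12 in striatum (7 to 15) and 6 in the F-test (0 to 8). The median over all genes moved by at most 0.09 with quantile normalization and 0.07 with median centring. No paired analysis was possible because the label numbers 1 to 40 are not shared between groups. Signals near the negative control medians, striatal Grm2 and Kcnj6 and cerebellar Grm5, Grasp and Adcy5, limit what their differences measure.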
